A study of Homo sapiens with 2 samples.

Results

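The cyclins A, B and E, the kinases CDK1 and CDK2 that they activate, and the CDC25 phosphatases that switch these kinases on were measured in PC-3 cells treated with Riccardin D (RD). They are represented by 10 genes, namely CCNA2, CCNB1, CCNB2, CCNE1, CCNE2, CDK1, CDK2, CDC25A, CDC25B and CDC25C, which were chosen by name. All 10 were on the array, of 19775 genes in all, and 25 of the 41091 probe sets that the platform annotation pairs with a single gene belonged to them. PC-3 is an established human prostate cancer line, independent of androgen for growth. RD is a liverwort compound of the macrocyclic bisbibenzyls. One group received RD at 10 µmol/L for 24 h, a dose that the sample labels leave out. The other was the control, described in the treatment protocol as DMSO vehicle but in the source name as without treatment. Total RNA of each was hybridised to 1 Affymetrix HG-U133 Plus 2.0 array.

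Progress through the cell cycle is driven by kinases that are inactive until a cyclin binds them. Cyclin E with CDK2 opens S phase, cyclin A works with CDK2 in S phase and with CDK1 in G2, and cyclin B with CDK1 drives entry into mitosis. The WEE1 and PKMYT1 kinases hold these complexes off by phosphorylation, the CDC25 phosphatases remove that phosphate, and after DNA damage the checkpoint kinases inhibit CDC25. Cyclin E is transcribed mainly in late G1 and most of the others in S and G2, through E2F factors, the MuvB complex with MYBL2 and FOXM1, and the CCAAT-binding factor NF-Y. In a bulk RNA sample, fewer cells in a phase and fewer transcripts per cell cannot be told apart.

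The signal of each of the 10 genes was lower after RD. Of these, 7 were called lower, that is, at least 2-fold lower with the higher signal at or above 66.9, and none was called higher. The value of 66.9, called the floor here, is the median over both arrays together. Among all 12818 genes at or above the floor, 13.3% were called lower and 12.1% were called higher. The median log2 difference (RD minus control) of the 10 genes was -1.22, beside -0.0022 over all genes at or above the floor. The 7 genes were CDK1, CDC25C, CDK2, CCNA2, CCNE2, CCNB2 and CDC25A, in order from the lowest, and CCNB1, CDC25B and CCNE1 fell short of 2-fold. These signals are MAS5 values on a linear scale. With 1 array per condition no p-value and no spread between cultures can be given, so the error used is the scatter among probe sets that measure 1 gene, given as the SD of their log2 differences. It was 0.34 over 8576 probe sets whose higher signal reached 377.4, the 75th percentile of all signals, and 0.76 over 18518 probe sets at or above the floor. The SD of a difference between 2 probe sets is accordingly 0.48 for bright and 1.07 for all of these. It holds the error of probe sets only and no variation between cultures or arrays. A difference between 2 genes beyond it therefore does not show that they would differ again in other cultures.

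The sequences before the annotated starts of 6 of the genes are shown because this is where NF-Y and the MuvB complex are known to bind in cell cycle genes, at CCAAT boxes and at the element TTTGAA. They run from 120 bases before to 30 bases after a start in RefSeq (GRCh38.p14), with the letters CCAAT and TTTGAA on either strand in capitals, so that ATTGG and TTCAAA are the same motifs read on the other strand.
CDK1 (chr10:60778358-60778507, plus strand): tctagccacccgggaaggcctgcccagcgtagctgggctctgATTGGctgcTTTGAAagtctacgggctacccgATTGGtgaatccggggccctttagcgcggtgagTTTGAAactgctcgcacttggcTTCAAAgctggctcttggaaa
CDC25C (chr5:138331775-138331924, minus strand): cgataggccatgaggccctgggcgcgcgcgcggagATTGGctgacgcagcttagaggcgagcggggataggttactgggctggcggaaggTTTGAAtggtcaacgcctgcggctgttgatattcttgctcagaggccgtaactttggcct
CCNA2 (chr4:121823854-121824003, minus strand): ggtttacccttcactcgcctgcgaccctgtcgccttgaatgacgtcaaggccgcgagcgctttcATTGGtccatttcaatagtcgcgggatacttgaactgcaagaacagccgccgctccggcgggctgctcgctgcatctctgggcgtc
CCNB2 (chr15:59105026-59105175, plus strand): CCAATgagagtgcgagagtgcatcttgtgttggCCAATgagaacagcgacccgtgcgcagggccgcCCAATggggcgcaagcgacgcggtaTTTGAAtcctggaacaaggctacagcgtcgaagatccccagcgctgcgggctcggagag
CCNB1 (chr5:69167030-69167179, plus strand): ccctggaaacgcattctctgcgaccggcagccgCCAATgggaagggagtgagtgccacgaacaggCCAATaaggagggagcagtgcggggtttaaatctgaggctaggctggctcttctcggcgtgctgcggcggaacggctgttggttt
CCNE1 (chr19:29811871-29812020, plus strand): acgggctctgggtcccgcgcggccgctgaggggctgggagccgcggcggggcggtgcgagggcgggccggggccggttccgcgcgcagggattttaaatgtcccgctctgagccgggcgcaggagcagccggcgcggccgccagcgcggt
For these and the other members, windows of 300 bases (250 before the start and 50 after it) were searched on both strands, and no motif contains another. Windows were given for 8 of the 10 genes, 15 in all, and where a gene had several, the one with the most matches in the stretch shown was taken. CDK1 had a pair of CCAAT boxes 78 and 46 bases before the start and TTTGAA 69 and 13 bases before it and 9 bases after it. CCNB2 had CCAAT at 244, 120, 87 and 54 bases and TTTGAA at 29 bases before its start. CDC25C had CCAAT at 85 and TTTGAA at 30 bases before its start, CCNA2 had CCAAT at 56 bases, and CCNB1 had CCAAT at 87 and 55 bases. The CCNE1 window held neither motif. CCAAT was in 34.6% and TTTGAA in 15.2% of all 35116 windows. At least 1 window held CCAAT in 7 of the 8 members and TTTGAA in 3, beside 43% and 13.9% of the 10415 genes with a window and a signal at or above the floor. CCAAT boxes whose first bases lay 32 bases apart in CDK1, 32 in CCNB1 and 33 in CCNB2 form pairs of a spacing (30 to 35 bases) that 1.81% of all windows held. This spacing was chosen after the members' sequences were seen. The E2F motifs GCGGGAA and GCGCGAA, in 6.55% and 2.24% of all windows, were present in some window of CDC25B and CDC25C and of CCNB1 and CDK1. A match is a description of the letters and is no evidence that a factor was bound. Only these exact letters were searched and variants were not, so the lack of a match does not show that an element is absent.

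**Figure D1:**
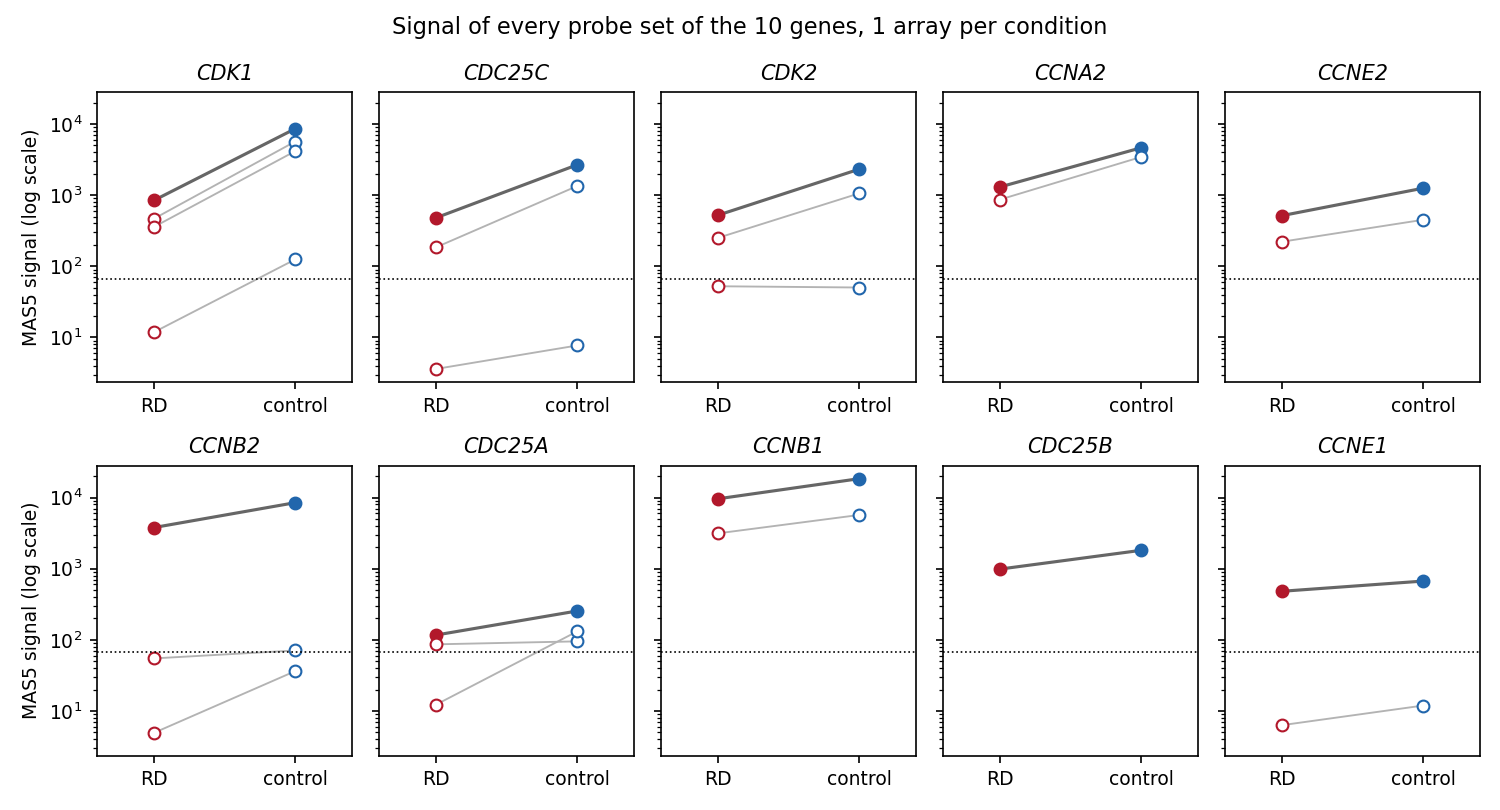
MAS5 signal (log scale) of all probe sets of the 10 genes, with a line from the RD array (left, red) to the control array (right, blue), 1 array each. The brightest probe set of a gene is filled and the others are open, and 66.9, the floor, is dotted. Of the 25 lines, 24 are lower at the RD end, and the exception is the dim CDK2 probe set at 52.4 (RD) and 50.3 (control).

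Of the 25 probe sets, 21 reached the floor on at least 1 array, and 15 of these 21 were called lower, beside 13.2% of all single-gene probe sets at or above the floor. None of the 21 was called higher. Both signals were at or above the floor in 18, of which 13 were called lower. Where the RD signal lay under the floor, the control signal was divided by the floor and the fold is given as a minimum.

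CDK1, the kinase that drives mitosis and is also named Cdc2, had the lowest log2 difference of the 10 genes. Its brightest probe set (203213_at) had a signal of 841.5 in RD-treated cells and 8577.3 in control cells, a log2 difference of -3.35. The 3 probe sets with both signals above the floor agreed closely, since 210559_s_at gave 464.7 in RD-treated and 5668.7 in control cells and 203214_x_at gave 356.2 in RD-treated and 4148.9 in control cells. They were 10.2-fold, 12.2-fold and 11.6-fold lower. The dimmest probe set (231534_at) read 11.8 in RD-treated and 124.7 in control cells, which is at least 1.86-fold lower. The log2 differences of the 3 with both signals above the floor spanned 0.26. By measured signals, CDK1 was preceded by 13 of the 8094 genes at or above the 75th percentile, of which 11 had both signals above the floor. The 5 lowest of these were RGS4, TMEM191A, ASF1B, WFDC21P and SLC39A10, with log2 differences of -4.13, -4.10, -3.92, -3.82 and -3.78, but the RD signal of TMEM191A was 24, under the floor. Against the floor TMEM191A was at least 6.17-fold lower and KIFC1, named after its value was seen, at least 9.89-fold lower, so their places relative to CDK1 are not settled. MYBL2, the MuvB partner, stood next to CDK1 in this order at -3.36. With 2 arrays no likeness across samples can be computed, so the order alone is given.

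CDK2, the partner of cyclins E and A, was also called lower. Its brightest probe set (204252_at) had a signal of 521.8 in RD-treated cells and 2317.7 in control cells, which is 4.44-fold lower. The next (211804_s_at) had 250.5 in RD-treated and 1059 in control cells, or 4.23-fold lower, so the pair differed by 0.07 on the log2 scale. The third (211803_at) lay under the floor on both arrays, at 52.4 in RD-treated and 50.3 in control cells, and carries no call. The log2 difference of CDK1 was lower than that of CDK2 by 1.20, more than the SD of 0.48 of such a difference. By rank, CDK2 was within the lowest 1.25%, and CDK1 within the lowest 0.173%, of genes at or above the 75th percentile.

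Cyclin A2, the cyclin that both kinases use, had 2 bright probe sets. CCNA2 gave 1301 in RD-treated and 4637.2 in control cells (213226_at) and 865.1 in RD-treated and 3445.6 in control cells (203418_at). These are 3.56-fold and 3.98-fold lower. Its log2 difference of -1.83 was reached by 2.15% of genes at or above the 75th percentile and lay 0.32 above that of CDK2, less than the SD of such a difference.

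The B cyclins, which pair with CDK1 to drive mitosis, differed far less than their kinase. CCNB1 had signals of 9584.5 in RD-treated and 18396.1 in control cells (214710_s_at), and of 3133.9 in RD-treated and 5685.7 in control cells (228729_at). Both probe sets stood just short of 2-fold, at 0.521 and 0.551 of control, and CCNB1 was not called. CCNB2 had 3778.4 in RD-treated and 8460.8 in control cells by its bright probe set (202705_at), which is 2.24-fold lower and was called. Its other probe sets were dim, at 54.7 in RD-treated and 70.7 in control cells (232768_at, not called) and at 4.9 in RD-treated and 36.2 in control cells (232764_at, under the floor on both). The log2 differences of CCNB2 and CCNB1, -1.16 and -0.94, were 0.22 apart, less than the SD of 0.48, so that the call separates genes whose values do not differ beyond the scatter. The log2 difference of CDK1 was lower by 2.41 than that of CCNB1 and by 2.19 than that of CCNB2, several times that SD. CCNB1 was also no extreme gene of the array, since 12.2% of the 8094 genes at or above the 75th percentile were as low.

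The E cyclins, which open S phase with CDK2, also differed less than their kinase. CCNE2 had 514.9 in RD-treated and 1253 in control cells (205034_at), and 221.3 in RD-treated and 450.6 in control cells (211814_s_at). It was called lower by both, at 2.43-fold and 2.04-fold. CCNE1 had 480.7 in RD-treated and 668.9 in control cells by its bright probe set (213523_at), or 0.719 of control, and was not called. Its other probe set (242105_at) was under the floor on both arrays, at 6.3 in RD-treated and 11.9 in control cells. The log2 difference of CCNE1 (-0.48) was 0.81 above that of CCNE2 (-1.28) and 1.67 above that of CDK2, and 26.8% of genes at or above the 75th percentile were as low as CCNE1.

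Of the phosphatases, CDC25C, which activates the cyclin B complex at entry into mitosis, had the lowest log2 difference by the brightest probe sets. It had 479 in RD-treated and 2669.6 in control cells (205167_s_at) and 184.2 in RD-treated and 1342 in control cells (217010_s_at), which are 5.57-fold and 7.29-fold lower. Both carry the suffix that marks sequence shared between transcripts, and the only probe set without it (216914_at) read 3.6 in RD-treated and 7.7 in control cells, under the floor. CDC25B, which starts the activation of CDK1 in G2, had 1 probe set (201853_s_at) at 985.5 in RD-treated and 1810.6 in control cells. It was at 0.544 of control, was not called, and its log2 difference lay 1.60 above that of CDC25C.

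CDC25A, which acts at the start of S phase as well as in mitosis, had low signals, and its probe sets did not all give the same call. Its brightest probe set (1555772_a_at) read 116.4 in RD-treated and 254.1 in control cells and was called at 2.18-fold lower. The second (204696_s_at) read 86.3 in RD-treated and 95 in control cells, or 0.908 of control. The third (204695_at) read 12.2 in RD-treated and 131 in control cells, at least 1.96-fold lower. The pair with both signals above the floor differed by 0.99 on the log2 scale, within the SD of 1.07 for a difference between probe sets at the floor, so the size of the CDC25A difference was not settled by these arrays. Among all members, CDC25A was the only one with no probe set at or above the 75th percentile.

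**Figure D2:**
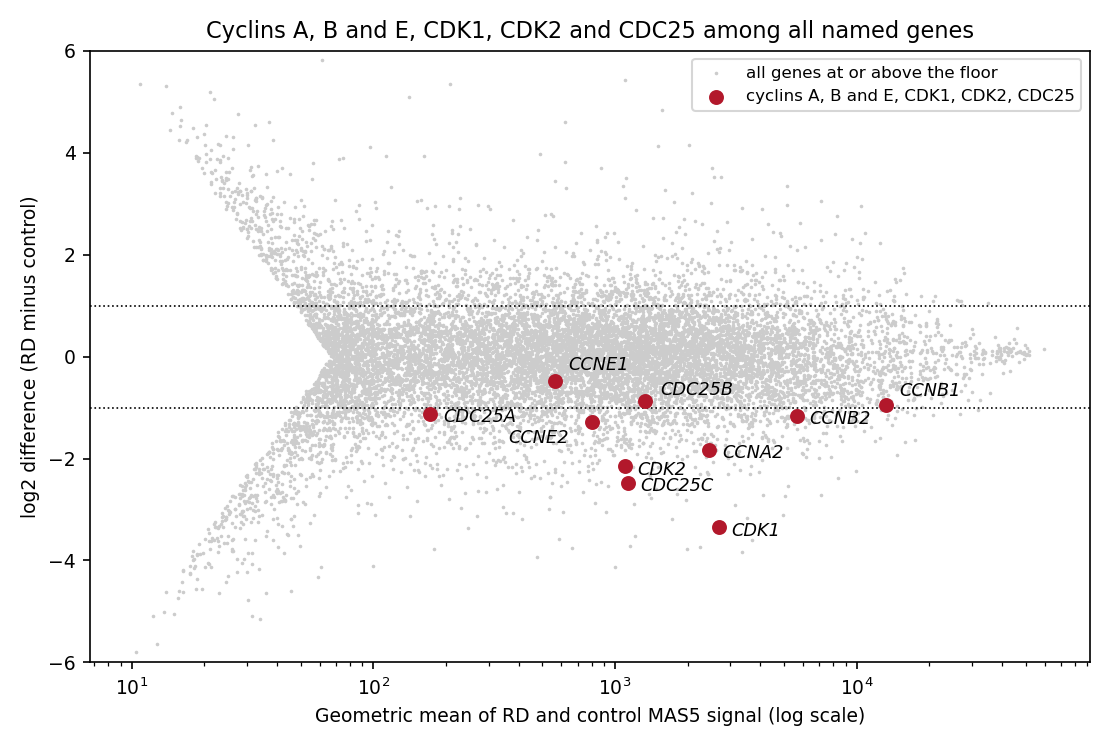
Difference in log2 signal (RD minus control, vertical) against the geometric mean of both signals (horizontal, log scale) for 12818 genes, each by its brightest probe set, with 1 array per condition. Red points are the 10 genes, dotted lines mark 2-fold, and 3 genes beyond 6 on the vertical axis are not drawn. All red points lie below 0, with CDK1 at -3.35 the lowest and CCNE1 at -0.48 the highest.

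The 10 genes thus ran in order from CDK1 through CDC25C, CDK2, CCNA2, CCNE2, CCNB2, CDC25A, CCNB1 and CDC25B to CCNE1. Neighbours in this order differed by less than the SD of 0.48 except at the step from CDK1 to CDC25C and at that from CCNA2 to CCNE2. That SD holds for bright probe sets, of which CDC25A had none, so the place of CDC25A in the order is not settled. The study also examined several of these regulators in PC-3 cells treated with RD by other methods. Transcripts of cyclins A, B1 and E, Cdc2, Cdc25B and Cdc25C were assayed by real-time PCR. Cyclin A, cyclin B1, cyclin E, Cdc25B, Cdc25C and Cdc2 phosphorylated on tyrosine were assayed by immunoblot. Neither the PCR assay nor the blot is labelled as cyclin E1 or E2, whose array values differed. The paper prints its PCR primers, but they were not matched to either gene here. CCNB2, CDK2 and CDC25A were in neither set, and all 3 were called lower here. No PCR or blot values were analysed here, and the array measures transcripts only, so that phosphorylation and protein level were not measured.

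The other cyclins and the other cyclin-dependent kinases had medians above 0. Of 17 other cyclins at or above the floor, 13 had a higher signal in RD-treated cells, 3 were called lower, 4 were called higher, and the median log2 difference was 0.27. Of all genes at or above the floor, 13.3% were called lower and 12.1% higher, which is the background for each list here and below. The lowest was CCND1, which works with CDK4 and CDK6 in G1, at 572 in RD-treated and 5196 in control cells (log2 difference -3.18). The next was CCNF, the F-box cyclin of G2, at 175.3 in RD-treated and 688.7 in control cells (-1.97). The highest were CCNO at 1176.3 in RD-treated and 437.3 in control cells (1.43), and CCNL2, which is linked to splicing, at 2720.3 in RD-treated and 1220.3 in control cells (1.16), though its next probe set gave 0.20. The other calls, named after their values were seen, were CCND3 (lower, -1.04) and CCNL1 and CCNJ (higher, 1.02 each). The next CCNJ probe set gave 0.44 and was not called. Of 15 other cyclin-dependent kinases at or above the floor, 1 was called lower, 2 were called higher and the median was 0.43. CDK5, which acts mainly in neurons, was at 1069.7 in RD-treated and 2536.5 in control cells (-1.25) and CDK4 at 0.609 of control. At the other end, CDK20 was at 353.6 in RD-treated and 136 in control cells (1.38), and CDK15 was at least 1.37-fold higher, at 91.5 in RD-treated and 30.1 in control cells. CDK3, CDK11A and CDK11B were not analysed here.

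Genes that act on these kinases and phosphatases were then examined by role. Of 11 partners and activators, 4 were called lower and none higher, beside 13.3% and 12.1% of all genes, and the median was -0.58. PLK1, the mitotic kinase that activates CDC25C, was at 489.3 in RD-treated and 1493.6 in control cells (-1.61), and ENSA, which restrains the PP2A phosphatase in mitosis, was at 3010.4 in RD-treated and 7215.4 in control cells (-1.26). AURKA (-1.18) and MASTL (-1.01) were the other calls, named after their values were seen, though the next AURKA probe set, at -0.81, was not called. CDK7, the CDK-activating kinase, and ARPP19 were at 1.53 and 1.52 of control, short of 2-fold, and another ARPP19 probe set had a log2 difference of -0.31. The kinases that oppose CDC25 were also called lower, since PKMYT1 was at 213.8 in RD-treated and 540.7 in control cells (-1.34) and WEE1 at 1251 in RD-treated and 3133.7 in control cells (-1.33). With CDKN3 (-1.04), 3 of 6 genes of the inhibitors' list were called lower. The CDK inhibitor CDKN1C was called higher, at least 4.21-fold by its brightest probe set, with 281.7 in RD-treated and 54.2 in control cells. Dimmer CDKN1C probe sets at 154.4 and 85.5 in RD-treated cells were also called higher, with control signals of 6.5 and 41.2 under the floor. The rest were under the floor on both arrays. CDKN1B was at 1.44 of control.

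Of 12 checkpoint and 14-3-3 genes that act on CDC25, 1 was called in each direction, beside 13.3% (lower) and 12.1% (higher) of all genes. Their median was -0.21. YWHAH was lowest (-1.31), with YWHAB next at 0.698 of control. A dim YWHAH probe set, at 81 in RD-treated and 69.3 in control cells (0.23), was not called. SFN, the 14-3-3 protein that retains CDK1 with cyclin B in the cytoplasm, was at 545.2 in RD-treated and 174.9 in control cells (1.64), and MAPKAPK2 was at 1.96 of control. Of 10 genes of cyclin and CDC25 turnover, 3 were called lower and 1 higher, with a median of -0.34. UBE2C, the ubiquitin-conjugating enzyme of the anaphase-promoting complex, was at 1592.2 in RD-treated and 10488.8 in control cells (-2.72) and SKP2 was at 484.5 in RD-treated and 1608.2 in control cells (-1.73). FBXW7, which targets cyclin E for destruction, was at 473.1 in RD-treated and 128.8 in control cells (1.88), but its next probe sets stood at 1.46 and 1.61 of control. CDC20 was called lower as well (-1.13, named after its value was seen), and CUL1 was at 1.17 of control.

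Of 23 cell cycle transcription factors, 6 were called lower and 2 higher, beside 13.3% and 12.1% of all genes, and the median was -0.16. The lowest were MYBL2, at 76.9 in RD-treated and 789.4 in control cells (-3.36), and E2F8, an atypical E2F repressor, at 109 in RD-treated and 674.1 in control cells (-2.63). The other 4 called lower, named after their values were seen, were FOXM1 (-1.68), E2F2 and E2F1 (-1.60 each) and TFDP1 (-1.46). The dimmest TFDP1 probe set, at 102.1 in RD-treated and 104.3 in control cells, was not called. E2F5, a repressor E2F, and the MuvB subunit LIN37 were called higher at 1.17 and 1.02, and no probe set of the NF-Y subunits NFYA, NFYB and NFYC was called. Their brightest probe sets were at 1.18 (NFYA), 1.39 (NFYB) and 1.20 (NFYC) of control, and the next of NFYB was at 0.771.

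**Figure D3:**
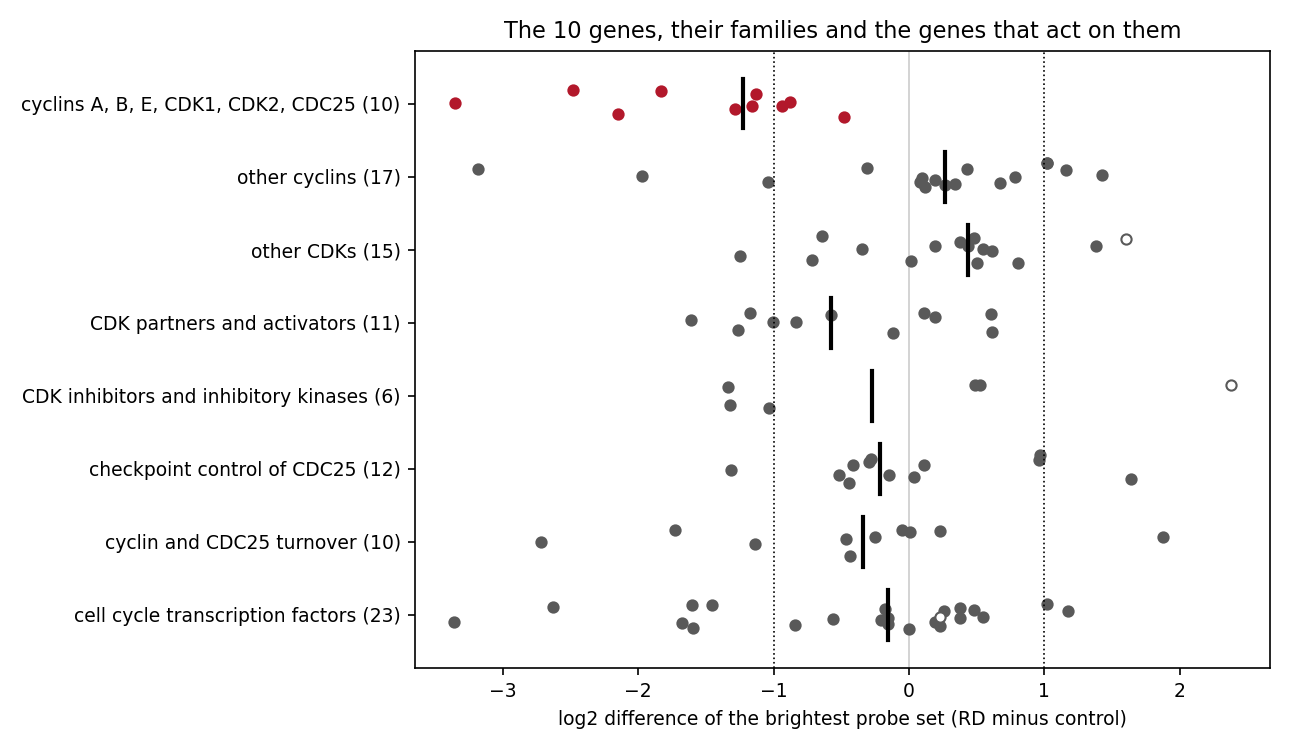
Difference in log2 signal (RD minus control) for each list of genes, with their number in brackets. A point is a gene by its brightest probe set, open where either signal was below the floor (its difference is then no bound), bars give medians and 2-fold is dotted. The 10 genes (median -1.22) all lie left of 0, while other cyclins (0.27) and other CDKs (0.43) have medians right of 0.

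The labelled cell type was checked against its markers. KRT18, a keratin of simple epithelium, had 15416.6 in RD-treated and 10224.2 in control cells, and KRT8 had 159.3 in RD-treated and 113.8 in control cells. EPCAM, CDH1 and KRT19 were under the floor on both arrays, as were KLK2 and TMPRSS2, while KLK3 had 230.6 in RD-treated and 131.4 in control cells by 1 probe set and was under the floor on both arrays by its other 2. Of 7 markers of blood, endothelium and fibroblasts, 3 reached the floor, and their summed signal over all 7 was 583.7 in RD-treated and 716 in control cells, with none called in either direction.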

How the data were processed

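Deposited values were MAS5 signals per probe set, that is, linear intensities corrected by the authors for background and mismatch probes. MAS5 comes from the submitters' processing notes, and neither its version nor its scaling target is given in the sources used here. Median signals were 67.8 on the RD array and 65.9 on the control array, over 54613 probe sets, so both had been scaled alike and no further normalization was applied. There were no detection calls. Probe sets were named through the platform annotation, of which RefSeq changed 0 symbols. Of the others, 1801 were paired with several genes and 11721 with none, and none of either was used.

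The log2 difference was log2 of the RD signal minus log2 of the control signal, with no offset. Each gene was represented by the probe set with the highest mean log2 signal. A gene was called at 2-fold or more in size with its higher signal at or above the floor of 66.9. No test was made with 1 array per condition, and precision is limited by the number of arrays. In each list the text names the 2 lowest and 2 highest genes at or above the floor, and in the order of all genes at most 5 as low as CDK1. The members, lists and motifs were chosen with earlier results of these data known. The call rule was tested on simulated data with known shifts. Only bright genes were shifted, and the simulated noise was less than the scatter among probe sets of a gene. That test therefore says nothing about calls on dim genes. Alternatives changed the scaling, the offset, the probe set of a gene, the floor and the fold. Scripts ran in Python 3.11.15 with pandas 2.3.3, numpy 2.4.6 and, for figures, matplotlib 3.10.9.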

Additional observations from a re-analysis of the deposited data

How the results depend on the processing

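The 10 genes kept a lower RD signal in every alternative that gave them a value. The same 7 were called lower when both arrays were quantile normalized or centred, when 17.1 was added to each signal, when a gene took the median of its probe sets, when no floor was set, and when dim signals were raised to the floor. CDC25A was left out by a floor at 377.4, which left 6 of 9 called, where 10.9% of all genes were called lower. At 1.5-fold 9 were called, all but CCNE1, where 24.7% of all genes were called lower. At 3-fold 4 were called, namely CDK1, CDC25C, CDK2 and CCNA2, where 6.05% of all genes were. Leaving out the probe sets whose suffix marks shared sequence left CDC25B without a value and CDC25C under the floor. It called 6 of 8 genes and 8 of 11 probe sets, where 13.9% of all genes were called lower. It put CDC25A at -3.42 by measured signals, on a probe set whose RD signal was under the floor. That probe set is known only as at least 1.96-fold lower. The median of those 8 genes was -1.56, that of the 9 genes above the higher floor was -1.28, and that of all 10 lay between -1.26 and -1.16 otherwise. Of the other CDKs, 3 were called lower at 1.5-fold, 0 at 3-fold and 0 of 9 under the restriction. The number of arrays limits every value.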

Other observations

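Motif content was also set beside the calls of all genes that had a promoter window and a signal at or above the floor. This was done after the members' sequences were seen. Of 37 genes with a pair of CCAAT boxes 30 to 35 bases apart and TTTGAA in the same window, 10 were called lower and 2 higher in RD-treated cells, with a median log2 difference of -0.44. Without the members among them, 8 of 35 (22.9%) were called lower. Among the 10378 genes without this combination, 12.9% were called lower and the median was -0.0020. With the members left out, 16.2% of 1447 genes with TTTGAA and 18.7% of 327 genes with a pair of CCAAT boxes were called lower, genes with both included. Among genes without TTTGAA the share was 12.4%, and among genes without such a pair it was 12.8%. Of 4474 genes with any CCAAT box, members left out, 13.9% were called lower, beside 12.2% of the 5934 genes without one. For the E2F letters GCGGGAA it was 13.3% of 1292 genes, members left out, beside 12.9% of 9121 without them. Of 493 genes with the E2F letters GCGCGAA, members left out, 12.8% were called lower, beside 13% of the 9920 genes without them. These counts compare 2 arrays, and what else the genes share was not tested.

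CCND1, the cyclin of G1 that lies outside the group described here, had a log2 difference between those of CDK1 and CDC25C. Both of its probe sets were called lower, at 572 in RD-treated and 5196 in control cells and at 383.9 in RD-treated and 2982.4 in control cells. CCNL1 was called higher by all 4 of its probe sets, and the dimmest of them had 130.2 in RD-treated and 35.8 in control cells, the control signal being under the floor.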
